A study of Mus musculus with 47 samples.

Results

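The genes described here are 9 named markers of cerebellar granule neurons: the zinc finger factors Zic1, Zic2 and Zic4, the transcription factors Neurod1 and Etv1, the secreted synaptic proteins Cbln1 and Cbln3, the giant cadherin Fat2 and the calcium-binding protein Calb2 (calretinin). They were chosen by gene symbol, with earlier results of these data known. For each gene the probe with the highest mean over all arrays stood for it. Of the 9, 8 had at least 1 probe under their symbol, among 15967 named genes in the series, and Fat2 was not analysed here. The 8 genes had 12 probes in all, with 3 for Etv1 and 2 each for Cbln3 and Calb2.

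Gene expression had been measured on 47 mouse bead arrays, 1 RNA sample on each, from cerebellum, cortex and striatum of R6/2(300Q) transgenic mice (tg) and wild-type mice (wt) on a CBA x C57BL/6 background. R6/2 mice carry a transgene with the expanded start of the human huntingtin gene, driven by the human promoter and active in many tissues, and are a model of Huntington's disease. Starting at the age of 4 months, mice of each genotype received the histone deacetylase inhibitor 4b (1 mg/ml, over 67 days) in a solution given instead of drinking water, or were controls. In each region the groups were thus tg with 4b, tg control, wt with 4b and wt control, with 4 arrays each, except wt control cerebellum with 3 (replicates 1, 2 and 4). Males and females occurred among the samples, and the labels do not say whether replicates were separate animals, so p-values measure only the spread between these samples.

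Granule neurons are the small excitatory neurons of the cerebellar cortex and make up most of its cells. They arise from progenitors that express Zic genes, depend on Neurod1 to differentiate and survive, and send parallel fibres to the Purkinje cells. At that synapse they release cerebellins, secreted proteins that organise the contact. In bulk tissue, fewer cells of a type and less RNA per cell cannot be told apart.

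Values are log2 levels after background correction with an offset of 50 and quantile normalization, and the offset makes fold changes of dim genes too small. A level up to 6.748, the highest of 3 Y-linked probes on the 26 arrays from female samples, was taken as background. The 95th percentile of 982 olfactory receptor probes was higher, at 7.014, and with it the lower bounds on fold differences below would be smaller. Replicates of a group correlated at 0.9743 to 0.994 over all probes, and a Y-linked gene matched the labelled sex on 47 of 47 arrays. The number of arrays limits the precision, and since probes differ in brightness, the levels of different genes cannot be compared.

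All 8 genes were higher in cerebellum than in cortex and striatum, with no overlap between the 15 cerebellar arrays and the 32 others. This is a description of genes chosen as markers, and it was not tested. In wt control tissue the difference was 12.3-fold to 24.2-fold against cortex for Zic1, Zic2, Cbln1 and Calb2, and 2.09-fold to 5.11-fold for Zic4, Etv1 and Neurod1.

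**Figure D1:**
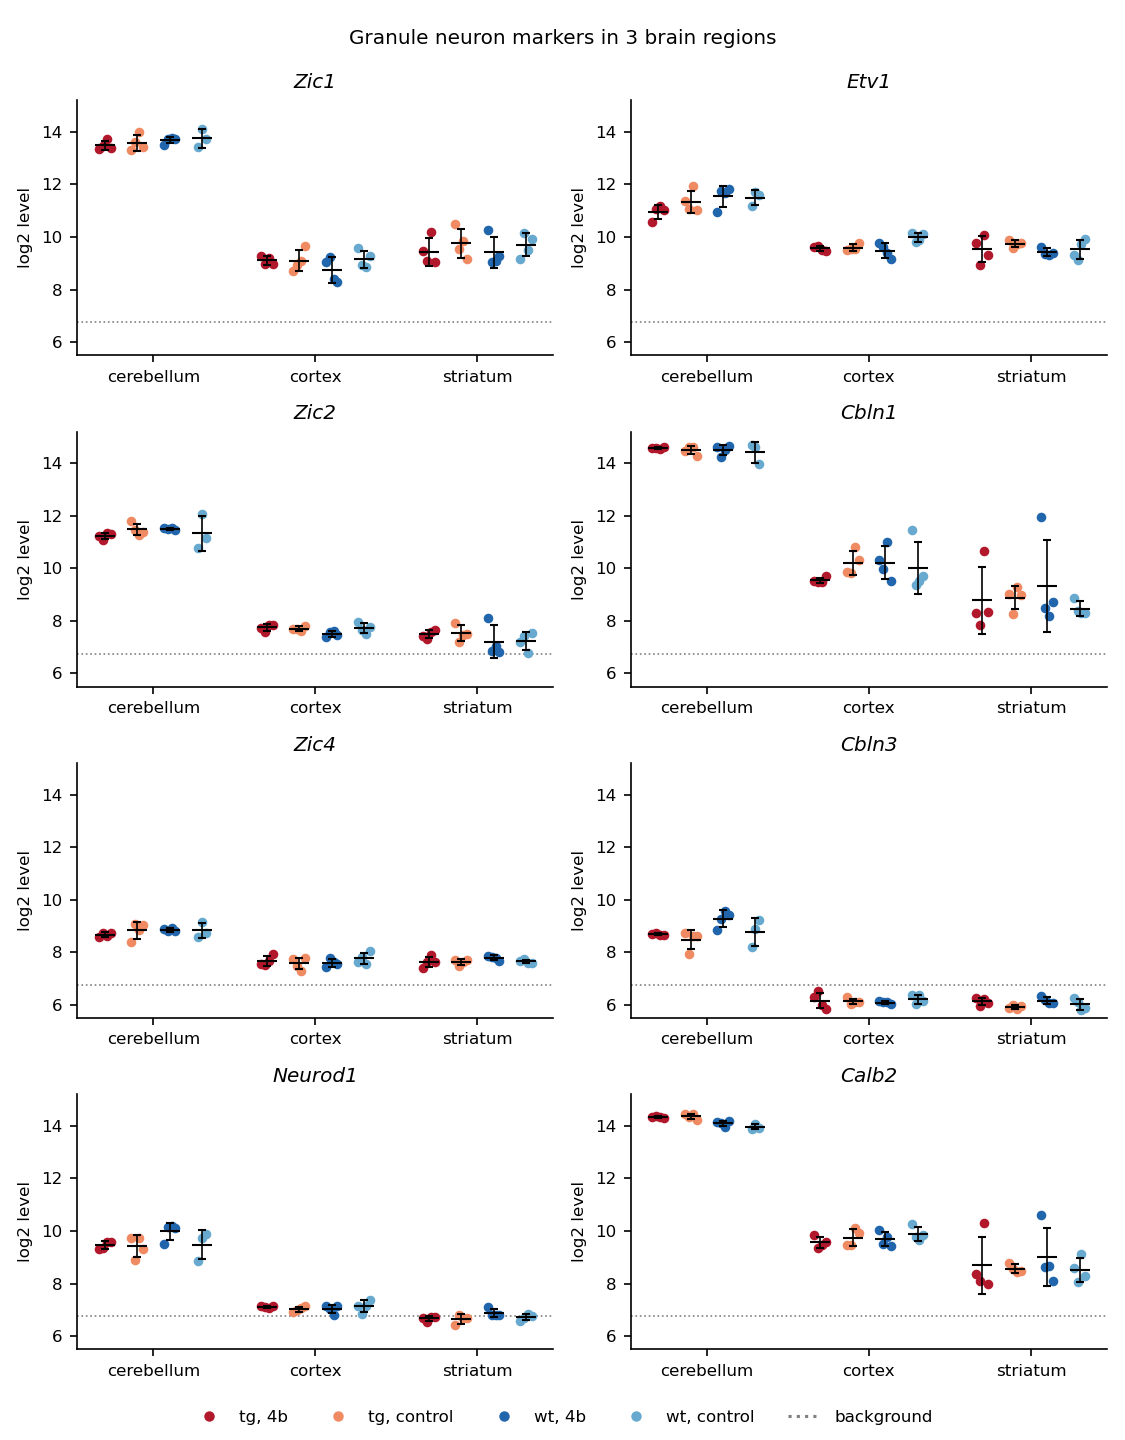
Log2 level of the 8 markers (vertical axis) on each of the 47 arrays, by region, genotype and treatment (tg with 4b, tg control, wt with 4b, wt control from left to right). Points are arrays, bars the mean and SD of a group (n = 4, or 3 for wt control cerebellum), and the dotted line is the background level of 6.748. Cerebellar arrays lie above the others for each gene, and Cbln3 is below background in cortex and striatum.

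The Zic genes encode zinc finger transcription factors of neural precursors that stay on in mature granule neurons. Zic1 lay at 13.32 to 14.11 (median 13.63) in cerebellum, at 8.27 to 9.66 (median 9.02) in cortex and at 9.03 to 10.48 (median 9.49) in striatum. In wt control tissue its cerebellar level was 24.2-fold the cortical and 16.6-fold the striatal one. The ranges of the other 2 regions overlapped, with means of 9.579 (SD 0.5) in striatum and 9.027 (SD 0.366) in cortex. Their order was not tested.

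Zic2 lay at 10.78 to 12.06 (median 11.40) in cerebellum, 7.38 to 7.95 in cortex and 6.76 to 8.12 in striatum, with the dimmest striatal array just above background. Between wt control pieces that was 12.3-fold over cortex and 17.2-fold over striatum. Zic4 lay at 8.38 to 9.16 (median 8.79) in cerebellum, 7.30 to 8.04 in cortex and 7.39 to 7.88 in striatum. Its cerebellar level in wt control tissue was 2.09-fold that of cortex and 2.27-fold that of striatum.

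Zic1 and Zic4 are neighbours on chromosome 9 and are read away from each other, with starts 3204 bases apart in RefSeq on GRCm38.p6. Their start regions are shown because both genes are among the markers and lie side by side. RefSeq start regions of 300 bases (250 before the start and 50 after it) were found for 6 of the 9 genes, Fat2 among them. Capitals mark the E-box motif CANNTG, which basic helix-loop-helix factors such as Neurod1 bind and which reads the same on both strands. The motif is common: 72.3% of 32851 start regions of this length hold it at least once and 39.6% at least 2 times. The Zic1 region, chr9:91365719-91366018 on the minus strand, holds it 1 time, and the Zic4 region, chr9:91368722-91369021 on the plus strand, holds it 2 times.
Zic1: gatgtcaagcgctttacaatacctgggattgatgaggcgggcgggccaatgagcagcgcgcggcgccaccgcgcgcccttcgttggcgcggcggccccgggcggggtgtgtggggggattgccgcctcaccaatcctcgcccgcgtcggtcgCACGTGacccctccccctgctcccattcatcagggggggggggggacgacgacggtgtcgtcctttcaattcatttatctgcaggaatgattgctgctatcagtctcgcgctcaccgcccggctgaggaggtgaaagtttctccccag
Zic4: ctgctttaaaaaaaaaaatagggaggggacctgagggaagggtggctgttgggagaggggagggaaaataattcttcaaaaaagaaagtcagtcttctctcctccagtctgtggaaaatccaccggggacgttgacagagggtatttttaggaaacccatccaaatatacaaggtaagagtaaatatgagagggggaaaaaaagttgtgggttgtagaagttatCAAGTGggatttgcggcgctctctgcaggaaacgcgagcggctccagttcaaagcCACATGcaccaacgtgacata

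Neurod1, the basic helix-loop-helix factor that granule neurons need to differentiate, lay at 8.85 to 10.20 (median 9.59) in cerebellum. It lay at 6.80 to 7.39 in cortex and at 6.40 to 7.11 in striatum, where 9 of 16 arrays were at or below background. In wt control tissue its cerebellar level was 5.11-fold that of cortex. Against striatum, where 2 of the 4 wt control arrays were at or below background, it was at least 6.54-fold with 6.748 as background.

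Etv1, an ETS factor of maturing granule neurons that is also made by deep-layer neurons of cortex, lay at 10.55 to 11.92 (median 11.19) in cerebellum, 9.15 to 10.15 in cortex and 8.94 to 10.06 in striatum. Among wt controls it was 2.82-fold higher in cerebellum than in cortex and 3.89-fold higher than in striatum.

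Cbln1, the cerebellin that organises the parallel fibre synapse, lay at 13.96 to 14.68 (median 14.59) in cerebellum, 9.37 to 11.47 in cortex and 7.83 to 11.95 in striatum. In wt control tissue its cerebellar level was 21.2-fold that of cortex and 62.1-fold that of striatum. Cbln3, which is secreted in complexes with Cbln1, lay at 7.95 to 9.58 (median 8.72) in cerebellum. All 16 cortical and all 16 striatal arrays were at or below background for Cbln3. With 6.748 as background, its cerebellar level in wt control tissue was thus at least 4.06-fold that of either region.

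Calb2 marks granule neurons and, in cerebellum, unipolar brush cells, and marks a class of interneurons in cortex. It lay at 13.90 to 14.45 (median 14.24) in cerebellum, 9.35 to 10.27 in cortex and 7.98 to 10.61 in striatum. Among wt controls that was 17-fold over cortex and 43.9-fold over striatum.

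The label was checked against markers that are not among the 9. Gabra6, a receptor subunit of granule neurons, lay at 8.86 to 10.05 in cerebellum and at 5.69 to 6.63 on all cortical and striatal arrays, which is below background. Grin2c also separated cerebellum (11.20 to 12.72) from cortex (8.41 to 9.84) and striatum (8.93 to 10.22). Slc17a7, Grm4 and Gabrd did not. Slc17a7 was higher in cortex (13.26 to 13.78) than in cerebellum (11.22 to 13.25). In cerebellum Grm4 (6.88 to 7.68) and Gabrd (11.76 to 12.85) overlapped striatum (6.88 to 7.97 and 11.11 to 12.27). Probes for Pax6 (6.17 to 6.80) and Barhl1 (6.82 to 7.29) were near background even in cerebellum, as was the Purkinje cell gene Car8 (5.73 to 6.52). The Purkinje cell marker Pcp2 lay at 13.68 to 14.43 in cerebellum, so the pieces held Purkinje cell RNA as well.

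The genotype comparison asks whether granule neuron genes differ between R6/2 and wild-type cerebellum. Calb2 was the only one of the 8 markers that passed the test, and it was higher in tg. It passed for the mean of both treatments, where 1 of 8 members was called against 5.25% of all 12049 genes tested, and 2.32% were called higher. Within control mice 0 of 8 were called, against 0.689% of genes, and within mice on 4b 0 of 8, against 1.44%. The members' median difference was -0.13 for the mean of both treatments, beside 0.018 over all genes tested, and 6 of the 8 differences were negative.

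**Figure D2:**
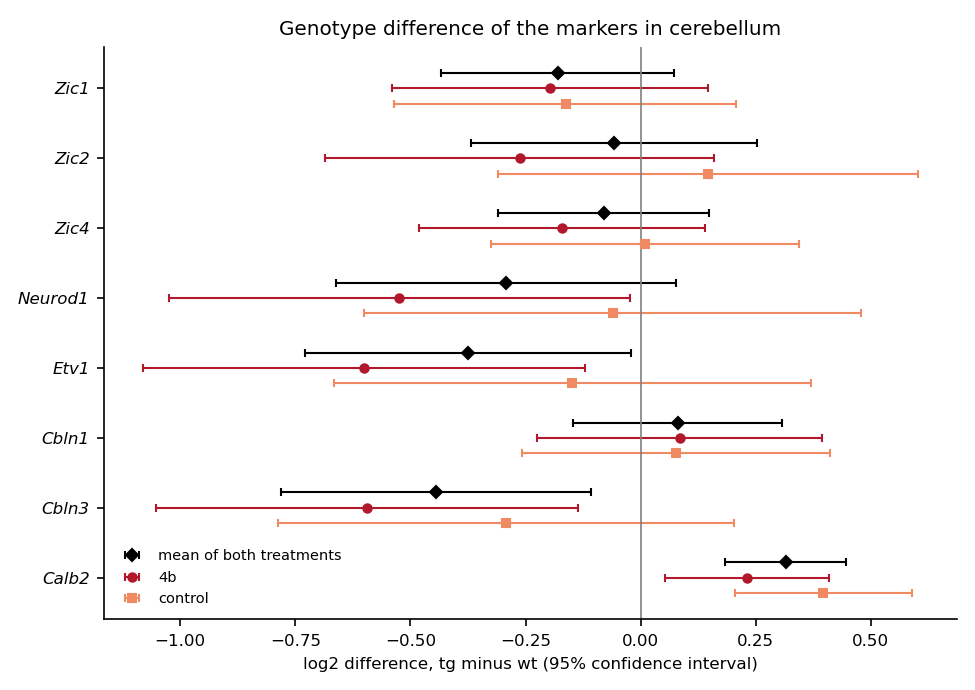
Log2 difference, tg minus wt, of each marker in cerebellum (horizontal axis) with its 95% confidence interval from the limma fit, for the mean of both treatments (diamonds), mice on 4b (circles) and control mice (squares). Calb2 lies above 0 in each; Neurod1, Etv1 and Cbln3 lie below 0 in each, by 0.52 to 0.60 under 4b.

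The Calb2 levels were 14.33, 14.37, 14.34 and 14.31 in tg cerebellum on 4b and 14.44, 14.35, 14.45 and 14.24 in tg control cerebellum. They were 14.14, 14.12, 13.97 and 14.20 in wt cerebellum on 4b and 13.90, 14.08 and 13.94 in wt control cerebellum. All 8 tg arrays lay above all 7 wt arrays, which was so, in either direction, for 1.43% of genes tested. The mean difference over both treatments was 0.315 ± 0.062 (log2, SE; 95% interval 0.183 to 0.446), or 1.24-fold, with an adjusted p of 0.0075 in limma. It was 0.397 in control mice (adjusted p = 0.062 in limma) and 0.232 in mice on 4b (adjusted p = 0.24), and the interaction test did not call the gap between them (-0.166, SE 0.123, adjusted p = 1).

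The second Calb2 probe gave the same direction. It lay at 13.30, 13.61, 13.34 and 13.59 in tg on 4b and at 13.20, 13.89, 13.90 and 13.85 in tg control cerebellum. It lay at 13.07, 12.92, 12.77 and 12.97 in wt on 4b and at 13.05, 13.23 and 13.42 in wt control cerebellum. The control groups overlapped on this probe, since tg control replicate 1 lay below 2 of the 3 wt control arrays. The difference for the mean of both treatments was 0.502 ± 0.11 (log2, SE), with an adjusted p of 0.016 in limma over 14768 probes. Array by array, the 2 probes did not follow each other within cerebellar groups (r = 0.01, 15 arrays). With group differences left in, r was 0.59.

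**Figure D3:**
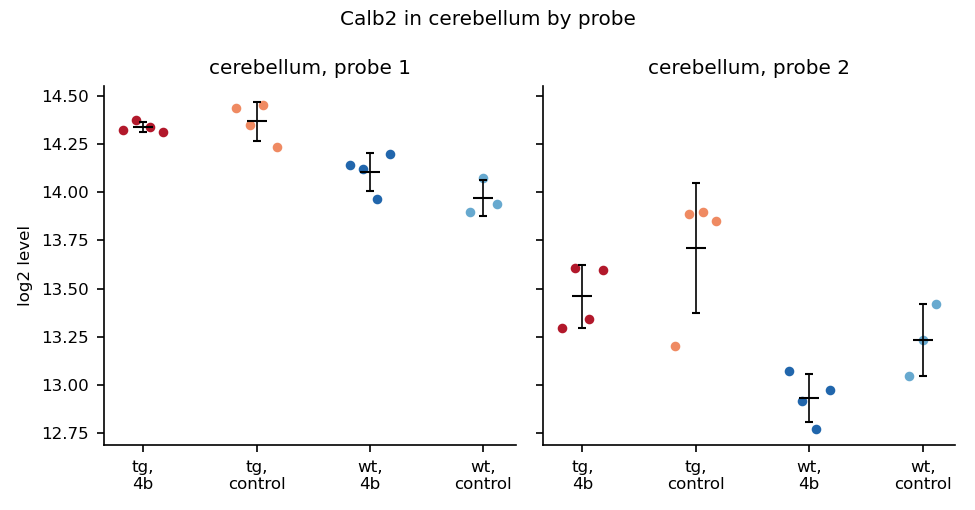
Log2 level of Calb2 (vertical axis) on each cerebellar array by group, for its brighter probe (left) and its dimmer probe (right); bars are means and SDs. The tg arrays of the brighter probe lie at 14.24 to 14.45, above all wt arrays at 13.90 to 14.20, and tg control replicate 1 lies low on the dimmer probe, at 13.20.

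Calb2 was near the top of the scale: its deposited intensities in cerebellum were 13695 to 23045, and 0.613% of probes were brighter there. On the bead chip that held a control array of each genotype the difference was 0.377, and on the chip with 2 arrays of each genotype on 4b it was 0.243. With the chip as a fixed block in a fit over all 47 arrays, whose spread includes the cortical and striatal arrays, the Calb2 difference was 0.556 with an SE of 0.262 and an adjusted p of 0.22 in limma, and the call was lost. In that fit Cbln3 was called in its place, with a difference of -0.379 (SE 0.121, adjusted p = 0.046 in limma).

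Cbln3, Etv1 and Neurod1 gave the largest negative differences, all uncalled. Cbln3 lay at 8.70, 8.72, 8.66 and 8.64 in tg cerebellum on 4b, against 8.83, 9.26, 9.58 and 9.43 in wt cerebellum on 4b. Those groups did not overlap, and the difference was -0.595 (95% interval -1.053 to -0.137, adjusted p = 0.24 in limma). In control mice Cbln3 lay at 8.72, 7.95, 8.62 and 8.62 in tg, against 8.19, 8.87 and 9.24 in wt, a difference of -0.293 (adjusted p = 0.67). The control groups overlapped, because 1 wt array lay below 3 of the 4 tg arrays. That difference was -0.581 without wt control replicate 1, -0.058 without wt control replicate 4 and -0.117 without tg control replicate 2, and none of these passed the test.

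Neurod1 lay at 9.31, 9.36, 9.59 and 9.59 in tg on 4b, against 9.49, 10.15, 10.20 and 10.12 in wt on 4b. The difference was -0.524 (95% interval -1.024 to -0.024, adjusted p = 0.38 in limma), and wt replicate 1 fell within the tg range. In control mice Neurod1 lay at 9.75, 8.88, 9.73 and 9.33 in tg, against 8.85, 9.73 and 9.88 in wt, and the groups overlapped (difference -0.061).

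Etv1 lay at 10.55, 11.06, 11.19 and 11.02 in tg on 4b, against 10.97, 11.75, 11.66 and 11.84 in wt on 4b. The difference was -0.600 (95% interval -1.081 to -0.12, adjusted p = 0.27 in limma), again with wt replicate 1 inside the tg range. In control mice Etv1 lay at 11.36, 11.05, 11.92 and 11.03 in tg, against 11.16, 11.71 and 11.58 in wt, with a difference of -0.148. The other Etv1 probes ran the opposite way on 4b, with 0.144 and 0.111 for tg minus wt (adjusted p = 0.96 each in limma over 14768 probes).

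These 3 differences under 4b were called under some other fits, which also called more of all genes than the 1.44% above. With array weights, Cbln3 (adjusted p = 0.017 in limma), Etv1 (0.044), Neurod1 (0.048) and Calb2 (0.023) all passed, where 8.81% of genes did. With the chip as a fixed block over all 47 arrays, Cbln3 (0.023), Etv1 (0.022) and Neurod1 (0.023) passed, where 3.84% of genes did. With only the 8 arrays on 4b, Cbln3 passed (0.039), where 5.15% of genes did. On the chip with 2 arrays of each genotype on 4b the differences were -0.855 for Cbln3, -0.565 for Neurod1 and -0.647 for Etv1.

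Markers of choroid plexus, the secretory tissue of the ventricles, varied in level between these arrays, also within groups. Of 12 such markers tested, 0 were called in either treatment, against 0.689% of all genes in control mice and 1.44% on 4b. The mean level of 13 such genes was 9.26 to 10.05 in tg on 4b, against 7.40 to 10.05 in wt on 4b, and 7.40 to 7.82 in tg control, against 7.60 to 9.89 in wt control cerebellum. Its part in the values above was not tested.

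Neurod1 and Cbln3 followed each other closely from array to array in cerebellum (r = 0.91 within groups, 15 arrays that share region and processing). Neurod1 also followed Etv1 (r = 0.78) and the granule marker Gabra6 (r = 0.77), and Zic1 followed Etv1 (r = 0.73). Cbln1 went with the Purkinje marker Pcp2 (r = 0.80) and against Cbln3 (r = -0.56). The start regions of Neurod1, chr2:79456587-79456886 on the minus strand, and Cbln3, chr14:55884207-55884506 on the minus strand, are shown because these 2 genes were the most alike. Each holds the E-box motif CANNTG (capitals) 1 time.
Neurod1: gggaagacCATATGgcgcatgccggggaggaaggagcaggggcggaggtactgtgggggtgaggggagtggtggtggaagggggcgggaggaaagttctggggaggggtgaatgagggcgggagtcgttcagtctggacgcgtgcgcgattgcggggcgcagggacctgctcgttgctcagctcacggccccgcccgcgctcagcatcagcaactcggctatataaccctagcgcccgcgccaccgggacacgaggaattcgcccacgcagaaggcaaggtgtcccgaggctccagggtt
Cbln3: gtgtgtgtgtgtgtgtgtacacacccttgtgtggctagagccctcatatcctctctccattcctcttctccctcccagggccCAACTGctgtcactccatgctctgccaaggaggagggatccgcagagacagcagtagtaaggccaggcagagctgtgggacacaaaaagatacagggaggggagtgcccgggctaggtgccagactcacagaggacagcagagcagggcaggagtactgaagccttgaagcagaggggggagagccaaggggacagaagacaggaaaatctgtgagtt

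The Zic genes and Cbln1 showed small differences in cerebellum, none called. Zic2 lay at 11.24, 11.09, 11.34 and 11.29 in tg on 4b, against 11.54, 11.51, 11.52 and 11.46 in wt on 4b. Zic4 lay at 8.59 to 8.75 in tg, against 8.79 to 8.91 in wt on 4b. Neither pair of groups overlapped, and with Cbln3 and Calb2 that made 4 of 8 members under 4b, where 13.5% of all genes did not overlap. The differences were -0.263 for Zic2 (adjusted p = 0.65 in limma) and -0.171 for Zic4 (adjusted p = 0.70).

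In control cerebellum Zic2 was 0.147 higher and Zic4 0.010 higher in tg than in wt, each within a confidence interval that spans 0. There, 1 of 8 members (Calb2) did not overlap, where 7.78% of all genes did not. Zic1 differed by -0.197 on 4b (95% interval -0.541 to 0.147) and by -0.163 in control mice. Cbln1 differed by 0.085 on 4b (95% interval -0.225 to 0.394) and by 0.076 in control mice. Cbln1 was near the top of the scale, with deposited intensities of 22967 to 26265 in cerebellum and 0.24% of probes brighter.

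Treatment with 4b moved no marker past the test. In tg cerebellum 0 of 8 were called and in wt cerebellum 0 of 8, where 0% of 12049 genes were called in limma in either genotype; an unadjusted p under 0.05 was reached by 560 genes in tg and 1079 in wt. No marker reached that level in tg, and Cbln3 alone did in wt. Cbln3 in wt differed by 0.507 (95% interval 0.012 to 1.002, adjusted p = 0.55), and Neurod1 in wt by 0.503 (adjusted p = 0.56). In tg the same differences were 0.205 for Cbln3 and 0.040 for Neurod1. The interaction of genotype and 4b called 0 of 8 markers and 0% of all genes, with 383 genes under an unadjusted 0.05.

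Both genes were low on wt control replicate 1, at 8.19 for Cbln3 and 8.85 for Neurod1. Without that array the 4b difference in wt was 0.219 for Cbln3 (adjusted p = 0.73 in limma) and 0.185 for Neurod1 (adjusted p = 0.79). Within chips the 4b difference in wt cerebellum was 1.067 on 1 chip and 0.265 on another for Cbln3, and 1.3 and 0.277 on the same chips for Neurod1.

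The 3 probes of Etv1 did not give 1 picture. The brightest probe, which gave the values above, did not follow the second across cerebellar arrays (r = -0.02, or -0.14 within groups). It ran against the second in cortex (r = -0.50, or -0.31 within groups). Probes 2 and 3 ran together in cerebellum (r = 0.99), cortex (r = 0.96) and striatum (r = 0.86), with group differences left in. All 3 separated cerebellum from cortex and striatum, except that tg control replicate 1 fell within the forebrain range on probes 2 and 3.

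On the second probe Etv1 lay at 10.49, 11.04, 10.61 and 10.90 in tg cerebellum on 4b, against 8.91 in tg control replicate 1 and 11.53 to 12.07 in the other 3 tg control arrays. In wt it lay at 10.92, 10.53, 10.65 and 10.36 on 4b, against 11.48, 11.48 and 12.16 in control cerebellum. Apart from tg control replicate 1, the arrays on 4b were thus lower than control arrays in both genotypes, and in wt the groups did not overlap, as for 10.9% of all genes by their brightest probes. The difference in wt was -1.093 (SE 0.538, adjusted p = 0.56 in limma), beside 0.07 on the brightest probe. In tg, with all arrays, it was -0.37 (SE 0.498, adjusted p = 0.99 in limma), beside -0.383 on the brightest probe. The tg control array that read 8.91 on probe 2 and 8.82 on probe 3 read 11.36 on the brightest probe, inside its group.

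**Figure D4:**
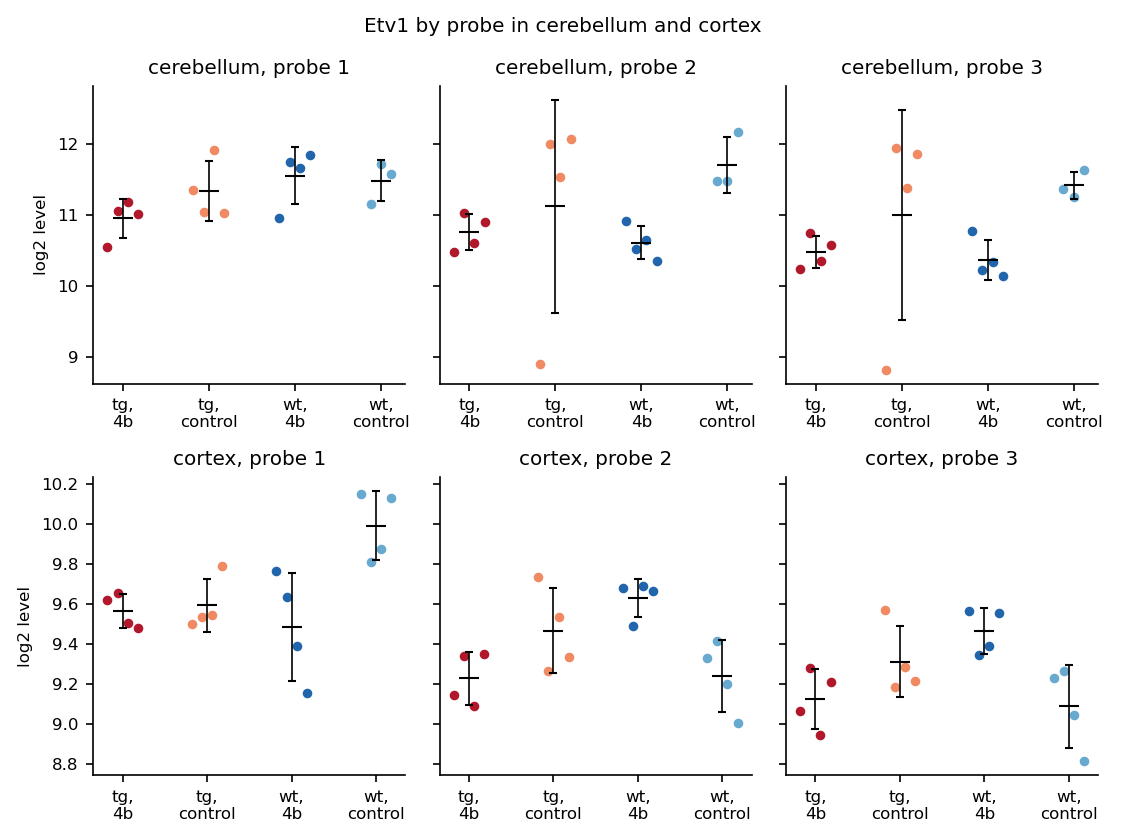
Log2 level of Etv1 (vertical axis) on each array by group for its 3 probes, from brightest (left) to dimmest (right), in cerebellum (top) and cortex (bottom); bars are means and SDs. On probes 2 and 3 wt cerebellum on 4b lies below wt control cerebellum, and 1 tg control array reads 8.91 and 8.82.

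In cortex the brightest Etv1 probe lay at 9.50, 9.53, 9.55 and 9.79 in tg control, against 10.15, 9.81, 9.87 and 10.13 in wt control tissue. These groups did not overlap, which was so for 11.8% of genes, and the difference was -0.399 (95% interval -0.653 to -0.145, adjusted p = 0.069 in limma). It was called with array weights (-0.402, adjusted p = 0.045) and with the chip as a fixed block (-0.915, adjusted p = 0.0017). The second probe gave 0.229 for the same comparison, in the opposite direction (adjusted p = 0.29). Under 4b the brightest probe differed by 0.080 between tg and wt cortex, and the second by -0.402 with an adjusted p of 0.043.

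No marker was called in cortex or striatum by its brightest probe. Cbln3 was too dim to be tested in cortex, and Cbln3 and Neurod1 were too dim in striatum. Between tg and wt cortex 0 of 7 were called in control mice, against 5.09% of 12052 genes, and 0 of 7 on 4b, against 5.52%. Between tg and wt striatum 0 of 6 were called in control mice, against 3.78% of 12030 genes, and 0 of 6 on 4b, against 4.51%. For 4b against control, 0 markers and 0% of genes were called in limma in cortex and striatum of either genotype, where 257 to 1098 genes had an unadjusted p under 0.05.

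The remaining differences in cortex and striatum were uncalled. Cbln1 lay at 9.47 to 9.70 in tg cortex on 4b, against 9.52 to 11.02 in wt cortex on 4b, a difference of -0.673 (95% interval -1.484 to 0.137, adjusted p = 0.33 in limma). Against tg control cortex, at 9.83 to 10.80, the same 4 arrays differed by -0.659 (adjusted p = 1 in limma) and lay lower without overlap, where 1.84% of genes did not overlap. Zic2 lay at 7.57 to 7.86 in tg cortex on 4b, against 7.38 to 7.60 in wt cortex on 4b, a difference of 0.243 (adjusted p = 0.16 in limma).

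In wt cortex, 6 of the 7 tested markers had a negative 4b difference by their brightest probes, with a median of -0.191 beside -0.008 over all genes tested. The reference group includes wt control replicate 1, the highest of 16 cortical arrays for Zic2 (7.95), Etv1 (10.15) and Calb2 (10.27). That array was second for Zic1 (9.57) and Neurod1 (7.16), and its part in these differences was not tested. The differences of Zic1, Zic2, Zic4 and Neurod1 stayed below 0 under every alternative. The brightest Etv1 probe lay at 9.15 to 9.76 in wt cortex on 4b, against 9.81 to 10.15 in wt control cortex, a difference of -0.506 (95% interval -0.76 to -0.252, adjusted p = 0.39 in limma). The second Etv1 probe gave 0.393 for that comparison (adjusted p = 0.41). Zic1 and Zic2 differed by -0.407 and -0.208 (adjusted p = 0.61 and 0.54 in limma).

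In striatum, Zic2 lay at 7.30 to 7.64 in tg on 4b, against 6.80 to 8.12 in wt on 4b. The difference was 0.287 (adjusted p = 0.61 in limma), and 0.595 without wt replicate 1, which read 8.12 (adjusted p = 0.077). Zic1, Zic4 and Etv1 differed between tg and wt striatum by -0.156 to 0.221 over both treatments.

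Whether the genotype difference in control mice itself differed between regions was tested over all 47 arrays. The labels do not say whether samples of different regions share an animal, and the fit took all arrays as independent. Against cortex 0 of 7 markers were called, where 0.374% of 11505 genes were, and against striatum 0 of 6, where 0.904% of 11501 were. For Calb2 the genotype difference in cerebellum exceeded that in cortex by 0.532 (SE 0.499, adjusted p = 0.82 in limma) and that in striatum by 0.34 (SE 0.499, adjusted p = 0.88). The spread of Calb2 in this fit was shared over all arrays, with SDs of 1.095 (tg) and 1.105 (wt) in striatum on 4b. In cerebellar groups the SDs were 0.026 to 0.1. Against the shared spread the test could not decide whether the genotype difference of Calb2 in cerebellum is particular to that region.

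Some cortical and striatal arrays carried several cerebellar genes at once. Striatum from wt replicate 1 on 4b read 11.95 for Cbln1, where the other arrays of its group read 8.20 to 8.73, and 10.61 for Calb2, where they read 8.09 to 8.67. It also had the highest striatal levels of Zic2 (8.12), Neurod1 (7.11), Cbln3 (6.34, below background) and Pcp2 (11.26). For Zic1 it was second (10.28), below tg control replicate 1 (10.48), which read 6.95 for Pcp2. It ranked 8 of 16 for Etv1 (9.63) and 2 of 16 for Gabra6 (6.41, below background). Striatum from tg replicate 3 on 4b read 10.65 for Cbln1, 10.31 for Calb2 and 9.45 for Pcp2, each second among the 16 striatal arrays. It was highest for Etv1 (10.06), Zic4 (7.88) and Gabra6 (6.63, below background). In cortex, wt control replicate 1 was highest for Cbln1 (11.47), Calb2 (10.27), Zic2 (7.95), Etv1 (10.15) and Pcp2 (9.50). It was second there for Zic1 (9.57) and Neurod1 (7.16).

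On a linear scale, the excess of wt striatum replicate 1 on 4b over the median of the other 15 striatal arrays was 14.7% of the cerebellar median for Cbln1, 13% for Pcp2 and 6.25% for Calb2. It was 4.28% for Zic1, 4.01% for Zic2, 4.21% for Neurod1 and 1.23% for Etv1. Within striatal groups Cbln1 followed Pcp2 at r = 0.94 and Calb2 followed Pcp2 at r = 0.88 over 16 arrays, values that rest largely on these arrays.

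**Figure D5:**
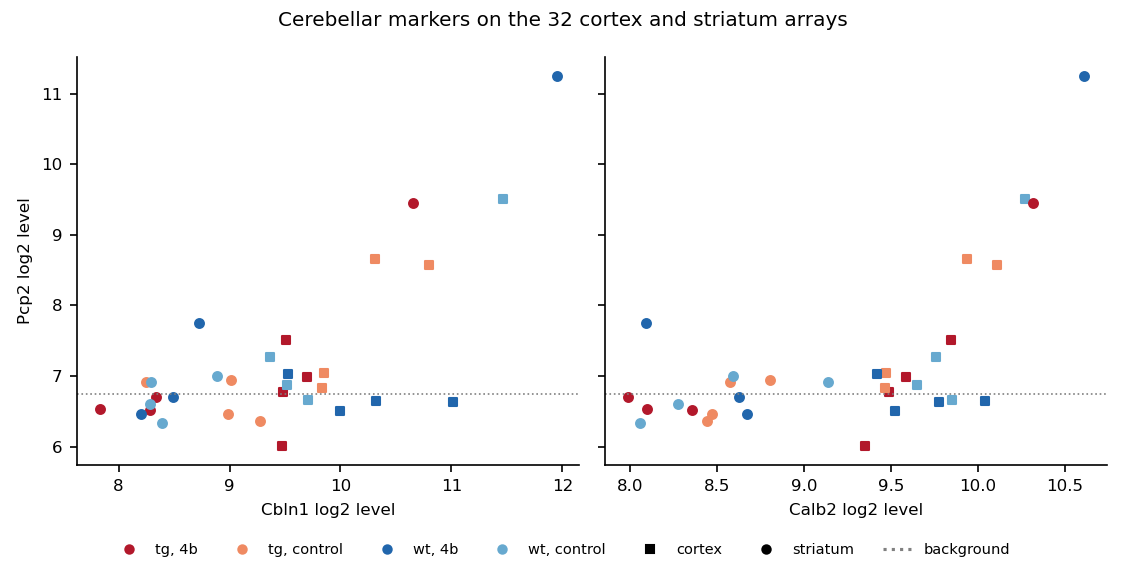
Log2 level of the Purkinje cell marker Pcp2 (vertical axis) against Cbln1 (left) and Calb2 (right) on the 32 cortical (squares) and striatal (circles) arrays, coloured by genotype and treatment; the dotted line is background. Striatum wt replicate 1 on 4b, at 11.26 for Pcp2, is highest on all axes, followed for Pcp2 by cortex wt control replicate 1 (9.50) and striatum tg replicate 3 on 4b (9.45).

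These arrays set the spread of Cbln1 and Calb2 in striatum. The 4b difference of Cbln1 in wt striatum was 0.881, and it was 0.012 without wt replicate 1 on 4b. For Calb2 it was 0.486 with that array and -0.051 without it. The tg minus wt difference of Cbln1 on 4b was -0.567 with all arrays, 0.302 without wt replicate 1 and -1.191 without tg replicate 3. In cortex, the tg minus wt difference of Cbln1 in control mice was 0.185, and 0.67 without wt control replicate 1. No marker was called in striatum or for these cortical comparisons with or without them.

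Other genes of granule neurons gave few calls in cerebellum. Their list was chosen with earlier results of these data known, so its counts are a description. Of 20 tested genes from a list of 25, 0 were higher and 2 lower in tg for the mean of both treatments, with a median difference of -0.054, where 2.93% of all genes were lower. Svep1, which encodes an extracellular matrix protein, averaged 8.55 ± 0.05 in tg on 4b and 8.60 ± 0.12 in tg control cerebellum. It averaged 9.43 ± 0.14 in wt on 4b and 9.27 ± 0.49 in wt control cerebellum (SD, n = 4, and 3 for wt control). The difference was -0.774 with an adjusted p of 0.0014 in limma.

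Grm4, a glutamate receptor of parallel fibre terminals, had a log2 difference of -0.354 (adjusted p = 0.011 in limma) at levels of 6.88 to 7.68, near background. Under 4b alone the same 2 genes were the ones called, where 1.44% of all genes were. In control mice none was, where 0.689% of all genes were. Gabrd, a receptor subunit that granule neurons use for tonic inhibition, had a genotype difference in control mice that differed between cerebellum and cortex. It averaged 12.38 ± 0.31 in tg control and 12.18 ± 0.43 in wt control cerebellum, and 10.40 ± 0.27 in tg control and 11.33 ± 0.09 in wt control cortex. The genotype difference in cerebellum exceeded that in cortex by 1.133 (adjusted p = 0.0073 in limma), where 0.374% of genes were called. That fit took samples of different regions as independent, and whether they share an animal is not labelled. On 4b the cerebellar order was the opposite, with Gabrd at 12.21 to 12.38 in tg and 12.43 to 12.76 in wt.

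Other cell types are given for the mean of both treatments, against the same 2.93% of all genes lower in tg. Their lists, too, were chosen with earlier results of these data known, so the counts are a description. Of 14 tested Purkinje cell genes, 5 were lower and 0 higher in tg, among them Itpka (-0.711), Homer3 (-0.704) and Rgs8 (-0.685). In control mice 0 of these 14 were called, where 43 of all 12049 genes were lower. On 4b 4 of them were called, all lower, where 123 of all 12049 genes were lower. Of 12 tested oligodendrocyte genes, 6 were lower and 0 higher, led by Ugt8a (-1.007), which makes a myelin lipid. Of 7 tested cerebellar interneuron genes, 1 was lower: Eomes, a marker of the unipolar brush cells that also hold Calb2, at -0.576 (adjusted p = 0.013 in limma) and levels of 6.95 to 8.03. The part of these cell types in the marker values was not tested.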

How the data were processed

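Total RNA had been hybridised to mouse bead arrays, 1 sample per array. The authors deposited non-normalized intensity values of 24613 probes, and a table of log2 values; quantile normalization of the log2 intensities alone gave the same numbers to within 0.0115. Per the submitters' processing notes the software was BeadStudio (no version named). Array medians of the deposited intensities were 122.2 to 289.3. 1 sample column that matched no sample was not used.

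Intensities were background-corrected (normexp, offset 50), converted to log2 and quantile-normalized over 47 arrays with limma 3.58.1 in R 4.3.3. Groups came from the sample titles. The probe with the highest mean stood for a gene, and a probe was tested in a region if its mean there was above the 40th percentile. Each region had 1 limma fit (lmFit, eBayes) in 4 groups, and contrasts across regions came from a fit to the 47 arrays together. The p-values, from both tails, were adjusted by Benjamini-Hochberg over all genes tested, and a gene was called below 0.05. The fit was tested on simulated data. Correlations are across arrays, as descriptions without a test.

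The members and gene lists were chosen with earlier results of these data known. The text names all 9 members, up to 3 genes of each other list with the smallest p in control cerebellum and any called, of which it gives a part, and the 5 genes most like the members by each of 2 measures. Alternatives changed background correction, normalization, filter, probe, array weights, samples, bead chip, sex and replicate block, and left out each array in turn. Same-numbered samples were not taken as pairs: their deviations correlated at -0.222 to 0.222.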

Additional observations from a re-analysis of the deposited data

Results flagged for a closer look

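Of 132 groups of 4 arrays checked per probe, 14 held an array far from the other 3, and chance flags about 1 in 20 such groups. Some of these arrays recur. Striatum from wt replicate 1 on 4b was high for Cbln1 (11.95, the others 8.20 to 8.73) and Neurod1 (7.11, the others 6.79 to 6.82). Striatum from tg replicate 3 on 4b was high for Calb2 on both probes (10.31, the others 7.98 to 8.36; and 8.86, the others 7.39 to 7.49). Cortex from wt control replicate 1 was high for Cbln1 (11.47, the others 9.37 to 9.70).

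Cerebellum from tg control replicate 1 was low on the second probe of Etv1 (8.91, the others 11.53 to 12.07) and on the second probe of Calb2 (13.20, the others 13.85 to 13.90), while the brightest probes of both genes were within their groups. Cerebellum from wt replicate 1 on 4b was low for Neurod1 (9.49, the others 10.12 to 10.20) and Zic1 (13.51, the others 13.72 to 13.75). Cerebellum from tg control replicate 2 was low for Cbln3 (7.95, the others 8.62 to 8.72).

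The remaining arrays stood apart by less than 0.5 on the log2 scale. These were Cbln1 in tg cortex replicate 4 on 4b (9.70) and wt control striatum replicate 1 (8.88), Etv1 in tg control cortex replicate 4 (9.79), and the second Etv1 probe in wt cortex replicate 2 on 4b (9.49).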

How the results depend on the processing

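Precision was limited by 3 or 4 arrays per group. The higher level in cerebellum on every array held for 8 of 8 markers in the authors' log2 values. Of 3117 values under alternatives, 3089 kept direction and side of the threshold or moved within the error. The count of called markers between tg and wt cerebellum changed as follows. In control mice it was 0, and 0 to 1 with an array left out, Calb2 passing without wt control replicate 2. On 4b it was 4 with array weights, 1 with only the compared groups and 3 with the chip as a fixed block. For the mean of both treatments it was 1 to 2 with an array left out, Cbln3 joining Calb2 without wt control replicate 1 (-0.588, adjusted p = 0.024 in limma). With the chip as a fixed block it stayed 1, but Cbln3 (-0.379, adjusted p = 0.046 in limma) was called and Calb2 (0.556, adjusted p = 0.22) was not. In cortex, Etv1 was the 1 marker called in control mice with array weights or the chip block, and on 4b with the second brightest probes. The cause of these changes was not tested.

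Signs turned for Etv1 with the second probe in cortex (0.229 for tg minus wt in control mice, -0.402 on 4b and 0.393 for 4b minus control in wt) and in cerebellum, where no value was called (0.144 against -0.600 for tg minus wt on 4b, 0.723 against -0.453 for the interaction, and -1.093 against 0.07 for 4b minus control in wt). They turned for Etv1 with the chip as a fixed block in striatum (-0.18 for tg minus wt in control mice, and 0.469 for the genotype difference in cerebellum minus that in striatum). For Calb2, 4b minus control in wt cerebellum was -0.301 on the second probe. With a replicate block the count of called markers was 1 (Calb2) for the mean of both treatments and 0 elsewhere; over all genes, calls between tg and wt cerebellum on 4b were 106 with it and 174 without. Calls there were 1061 with array weights, 621 with only the compared groups and 463 with the chip block.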

Other observations

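Over the 12 group means, the genes outside the set most like the mean of the standardised markers were Lhx1, Rnf182, Sema4g, Il16 and Atp2a3, each at r = 0.997 among 15959 genes. These points share the contrast of cerebellum with the other regions. Lhx1, a homeobox factor of Purkinje cells, averaged 10.85 in wt control cerebellum, 6.65 in cortex and 6.46 in striatum, and Atp2a3, a calcium pump, 13.54, 9.43 and 9.24.

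Within groups over the 15 cerebellar arrays the order of likeness was different. Rtn4rl1, a Nogo receptor relative, came first at r = 0.946, followed by Ergic1 and Ppp3ca (0.905 each) and Ap3d1 and Tex261 (0.896 each), among 10225 genes. Ppp3ca, a calcineurin subunit, averaged 13.43 in wt control cerebellum, 13.82 in cortex and 14.17 in striatum, and Tex261 averaged 11.36, 10.55 and 10.80 in the same order.

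The markers themselves differed in how they followed the mean of the others within cerebellar groups. Zic1 (r = 0.76), Etv1 (0.69) and Neurod1 (0.58) followed it most, and Zic4 (0.13) and Cbln1 (-0.10) least.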
